A study of Mus musculus with 6 samples.

Results

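The 10 genes described here are Slc1a2, Slc1a3, Aqp4, Gja1, Gjb6, Aldh1l1, Glul, Kcnj10, Mlc1 and Ndrg2. Most of them serve the transport, water balance and cell coupling of resting astrocytes, while Aldh1l1 and Ndrg2 are used as astrocyte markers. The 10 were taken by name from the 24421 gene symbols in a table of read counts from bulk RNA sequencing of mouse brain cortex. All 10 passed the filter on low counts, which left 14852 genes to test. All 6 samples came from mice of the C57BL/6 strain whose middle cerebral artery had been occluded (MCAO), which models an ischaemic stroke. The control group of 3 samples was given green fluorescent protein (GFP) and the other 3 were given NeuroD1, a proneural transcription factor. The comparison asks how NeuroD1 alters gene expression in the injured cortex. The sources used here do not give the vector, its promoter, the time after stroke, or the animals' age and sex. Nor do the labels state that every sample is its own animal, so a p-value here reflects only how much these libraries vary, and part of that may be technical.

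Astrocytes clear glutamate from synapses with the transporters encoded by Slc1a2 and Slc1a3 and turn it into glutamine with the enzyme encoded by Glul. They also take up the potassium that active neurons release, move water through channels in the endfeet that wrap blood vessels, and share small molecules with each other through gap junctions. After a stroke, astrocytes near the lesion become reactive, a state in which the filament gene Gfap is known to rise and several of these resting functions can decline.

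None of the 10 genes passed edgeR's test across all genes, and the data show lower means with NeuroD1 for 9 of them and a higher mean for Aqp4. The test was edgeR's quasi-likelihood test with Benjamini-Hochberg adjustment and a threshold of 0.05, and it called 0 of 14852 genes (0%), with a smallest adjusted p of 0.136. The median log2 fold change of the 10 genes was -0.37, against 0.02 for all tested genes, and 48.3% of all tested genes had a negative fold change. At an unadjusted p under 0.05, 2 of the 10 (Mlc1 and Ndrg2) were lower and 0 were higher, while 11.5% of all tested genes were lower and 12.5% higher by that rule. In 3 of the 10 (Glul, Mlc1 and Ndrg2) every NeuroD1 library lay below every GFP library, and 15.3% of all tested genes did the same. Counting both directions, 24.0% of all tested genes were past that p and 29.6% had groups that did not overlap, so these counts of 2 and 3 in 10 are near the background. A lower count in bulk tissue does not tell fewer astrocytes from less RNA per astrocyte.

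Of the genes of glutamate uptake and conversion, the transporters overlapped between the groups and the enzyme did not. Slc1a2 encodes GLT-1, the main glutamate transporter of the forebrain. Its level, in TMM-scaled CPM (counts relative to library size), was 5775, 2712 and 2054 in GFP replicates 1, 2 and 3 and 3823, 2001 and 3821 in NeuroD1 replicates 1, 2 and 3. The groups overlapped almost entirely, and the spread within GFP, 2.81-fold from the lowest to the highest library, was larger than the difference between the means (3514 ± 1986 with GFP and 3215 ± 1051 with NeuroD1, SD, n = 3 each). The log2 fold change was -0.13 (SE 0.48; edgeR adjusted p = 0.887). Without GFP replicate 1 its estimate was 0.42.

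Slc1a3 encodes GLAST, the second astrocyte glutamate transporter, which is most abundant in the cerebellum. Its level was 1265, 811 and 697 CPM in the GFP libraries and 704, 481 and 823 CPM in the NeuroD1 libraries. Replicate 3 of NeuroD1 lay above the lower GFP pair, so the groups overlapped, and the log2 fold change was -0.47 (SE 0.33; edgeR adjusted p = 0.402). Without GFP replicate 1 it was -0.19.

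Glul encodes glutamine synthetase, which in brain is found mainly in astrocytes. It stood at 3128, 2750 and 1981 CPM with GFP and at 1529, 1684 and 1781 CPM with NeuroD1. The groups did not overlap, and the SD within a group was 585 CPM with GFP and 127 CPM with NeuroD1 (n = 3 each). The mean was 1.57-fold lower, a log2 fold change of -0.65 (SE 0.31), and it did not pass (edgeR adjusted p = 0.236).

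Water and potassium channels of the endfoot showed no separation of the groups. Aqp4, which encodes the water channel aquaporin-4, had 536, 210 and 313 CPM in the GFP libraries and 497, 307 and 435 CPM in the NeuroD1 libraries. GFP replicate 1 was the highest of all 6 libraries and GFP replicate 2 the lowest, so the NeuroD1 libraries sat inside the GFP range. Its log2 fold change of 0.22 (SE 0.37; edgeR adjusted p = 0.727) was the only positive one of the 10, and it was -0.04 without GFP replicate 2.

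Kcnj10 encodes Kir4.1, the inward rectifier channel through which astrocytes buffer potassium. Its level was 553, 325 and 254 CPM with GFP and 390, 240 and 365 CPM with NeuroD1. GFP replicate 1 was the highest library and NeuroD1 replicate 2 the lowest, and the other 4 lay between them with the groups mixed, and the log2 fold change was -0.19 (SE 0.34; edgeR adjusted p = 0.756). Leaving out GFP replicate 1 gave 0.18, and leaving out NeuroD1 replicate 2 gave 0.005.

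Gap junction genes of astrocytes overlapped between the groups as well. Gja1 encodes connexin 43, the main astrocyte connexin, and had 551, 301 and 347 CPM in the GFP libraries and 340, 364 and 413 CPM in the NeuroD1 libraries. GFP replicate 1 was the highest and the other 5 libraries lay between 301 and 413 CPM. The log2 fold change was -0.10 (SE 0.28; edgeR adjusted p = 0.843) and was 0.18 without GFP replicate 1. Gjb6 encodes connexin 30, the partner that appears later in development, and had 97.4, 76.0 and 61.2 CPM with GFP and 56.9, 61.8 and 66.2 CPM with NeuroD1. Only the lowest GFP library fell within the NeuroD1 range, and the log2 fold change was -0.34 (SE 0.22; edgeR adjusted p = 0.351). With GFP replicate 1 left out it was -0.18.

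Mlc1 encodes a membrane protein of astrocyte junctions and endfeet whose loss causes megalencephalic leukoencephalopathy with subcortical cysts, a disease of brain water balance. It had 429, 377 and 334 CPM in the GFP libraries and 227, 119 and 278 CPM in the NeuroD1 libraries. The GFP libraries were within 1.28-fold of each other, the NeuroD1 libraries were spread over 2.33-fold, and the groups did not overlap. The mean was 1.83-fold lower (log2 fold change -0.87, SE 0.33; edgeR adjusted p = 0.171). Without NeuroD1 replicate 2, its lowest library, the log2 fold change was -0.58.

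Ndrg2, a member of the N-myc downstream-regulated family used as a marker of mature astrocytes, showed the largest difference of the 10. It had 1149, 1108 and 674 CPM in the GFP libraries and 357, 383 and 611 CPM in the NeuroD1 libraries. The third replicates of the groups, at 674 and 611 CPM, were near each other, and the remaining GFP pair stood far above the remaining NeuroD1 pair. The mean was 977 ± 263 CPM with GFP and 450 ± 140 CPM in the NeuroD1 group (SD, n = 3 in each group), a 2.17-fold lower level (log2 fold change -1.12, SE 0.33; edgeR adjusted p = 0.141). DESeq2's Wald test called it (adjusted p = 0.0173), and 0 of the other 9, where it called 3.93% of all genes it tested in the lower direction and 8.99% in either. The adjusted p of Ndrg2 over 14 alternatives (7 other tests, scalings, filters or terms, 6 edgeR fits with a library left out and 1 with length and GC offsets) ran from 0.0173 to 0.412, with DESeq2 on all libraries the only one past the threshold. Leaving out GFP replicate 1 ended that DESeq2 call (adjusted p = 0.054), as did leaving out GFP replicate 2 (adjusted p = 0.179) or NeuroD1 replicate 1 (adjusted p = 0.159). The call held in the other 3 such fits, and in the one that left out NeuroD1 replicate 3 DESeq2 also called Mlc1 (adjusted p = 0.0174).

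Aldh1l1 encodes a folate enzyme and is a widely used marker of all astrocytes. It had 183, 146 and 110 CPM with GFP and 128, 62.2 and 145 CPM with NeuroD1. NeuroD1 replicate 2 was low while the other NeuroD1 libraries lay within the GFP range, and the log2 fold change was -0.39 (SE 0.34; edgeR adjusted p = 0.481). Without NeuroD1 replicate 2 it was -0.10.

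**Figure D1:**
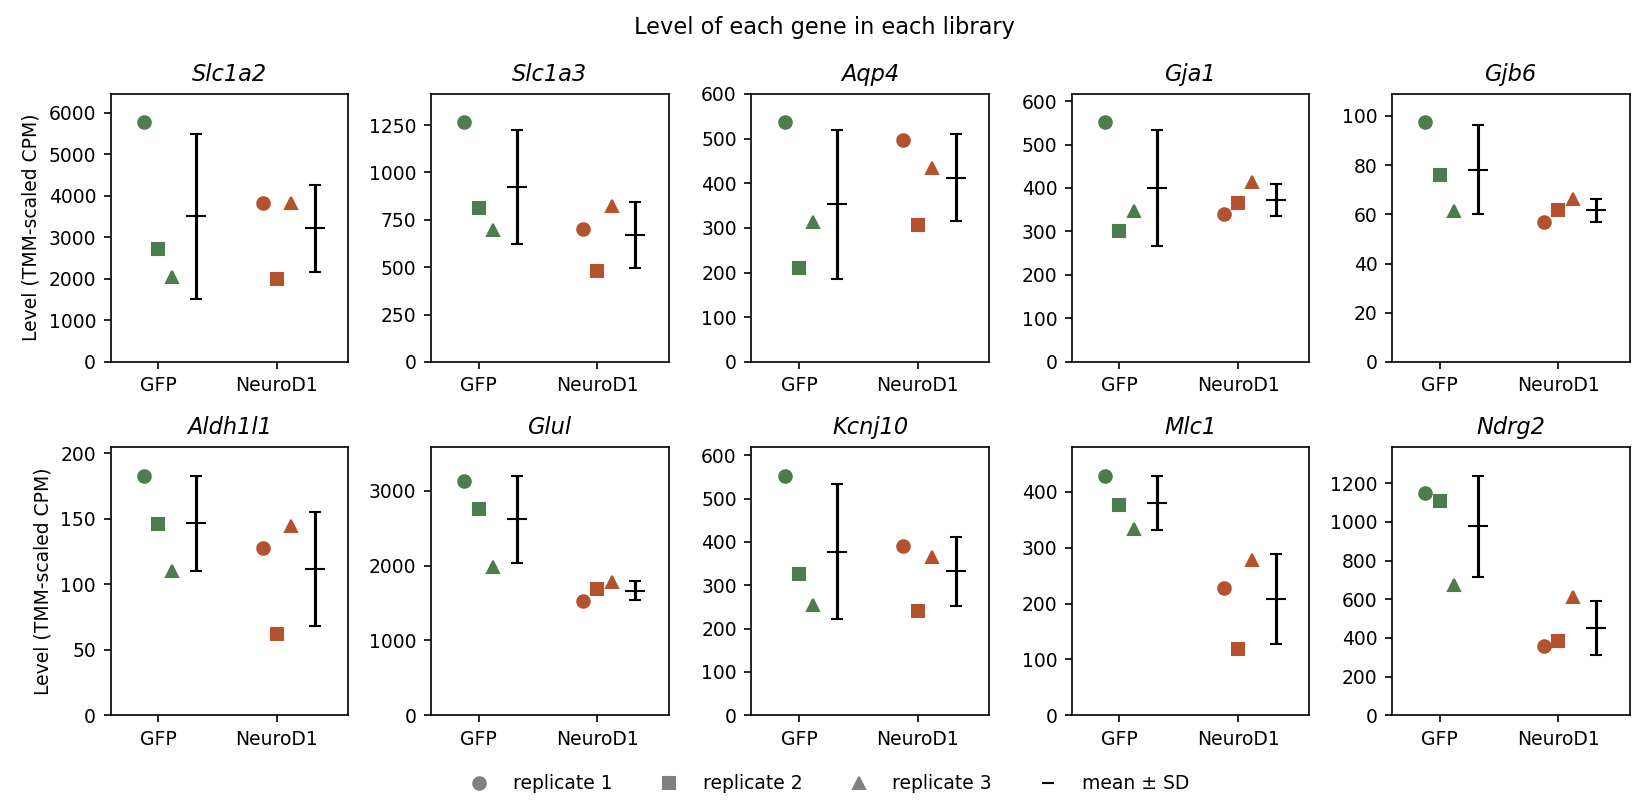
Level of each of the 10 genes in TMM-scaled CPM (linear axis from 0) in the 3 GFP and 3 NeuroD1 libraries, with 1 symbol per replicate number and black bars for the group mean ± SD. GFP replicate 1 was the highest library in all 10 panels, and the groups are apart only for Glul, Mlc1 and Ndrg2.

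**Figure D2:**
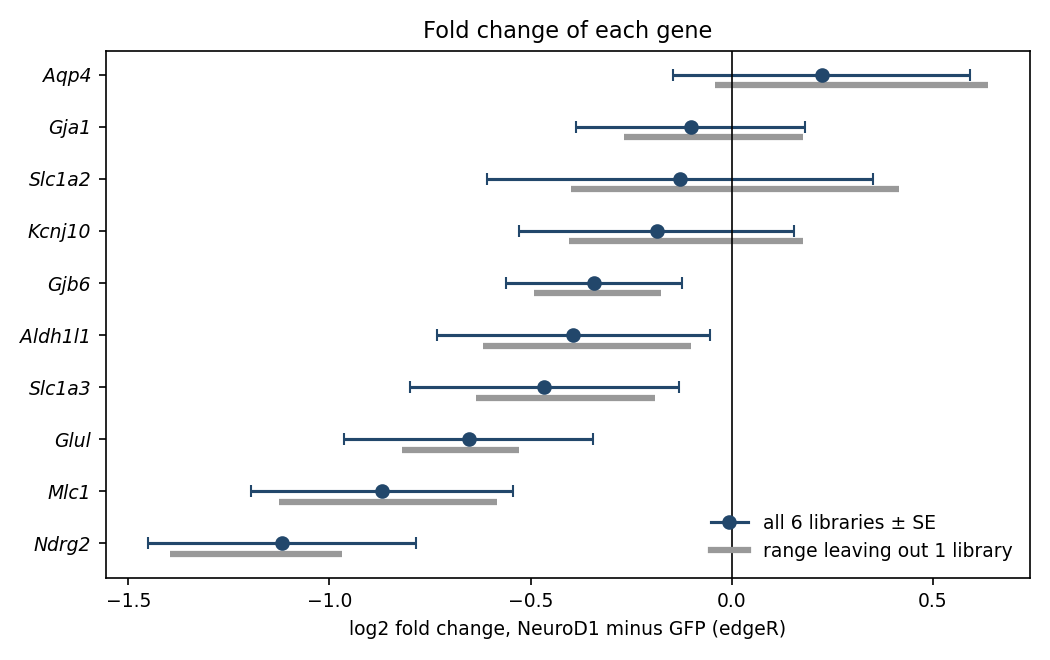
log2 fold change of NeuroD1 minus GFP for each gene from edgeR (points, bars ± SE, 6 libraries), with grey bars for the range of the estimate when 1 library at a time was left out. The ranges of Aqp4, Gja1, Slc1a2 and Kcnj10 cross 0, and that of Ndrg2 runs from -1.40 to -0.97.

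The 10 genes also differed between libraries of 1 group. GFP replicate 1 held the highest level of all 10 genes, and the lowest level was in NeuroD1 replicate 2 for 5 of them, in NeuroD1 replicate 1 for 3 and in GFP replicate 2 for 2. The 10 genes together took 1.39% of all counts in GFP replicate 1, 0.525% in NeuroD1 replicate 2 and between 0.739% and 0.898% in the other 4 libraries. Markers of neurons had the same highest and lowest library: the summed level of 12 neuron markers was highest in GFP replicate 1 (10098 CPM) and lowest in NeuroD1 replicate 2 (3696 CPM). So did further lists described below: amino acid uptake and glutamate metabolism, potassium, sodium pump and bicarbonate transport, endfoot proteins, and astrocyte identity and metabolism. The sum of reactive astrocyte genes was instead highest in GFP replicate 2 (8305 CPM). The part of neurons in the levels of the 10 genes was not tested. Without GFP replicate 1 the median log2 fold change of the 10 was -0.18 and 6 of them had a negative estimate. Without NeuroD1 replicate 2 the median was -0.19 and 7 were negative.

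Within these libraries some of the 10 genes were more alike than others, and whether they form separate patterns was not tested. The likeness of 2 genes was measured as the root mean square difference between their log2 CPM, each centred on its own mean over the 6 libraries, so that 0 means the same profile. Over the 45 pairs it ran from 0.16 to 0.88 with a median of 0.39. The closest pair was Slc1a2 and Kcnj10 (0.16), followed by Gjb6 and Glul (0.17) and by Slc1a3 and Aldh1l1 (0.18). The farthest pair was Aqp4 and Ndrg2 (0.88), then Aqp4 and Mlc1 (0.74). The median profile of the 10 genes was most closely followed by Slc1a3 (0.06) and least by Aqp4 (0.47). Of the tested genes outside the 10, the profiles nearest to that median were those of Pcx, pyruvate carboxylase (0.05), Epb4.1l5, a membrane scaffold (0.07), Rnf182, a ubiquitin ligase (0.07), Myo6, an unconventional myosin (0.07), and Pygb, the brain form of glycogen phosphorylase (0.08). The median over all other tested genes was 0.50. All these profiles share the same 6 libraries and their depth.

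The balance between functionally linked genes was compared as the log2 ratio of their counts within each library, which does not depend on scaling between libraries. Gja1 over Gjb6 was 5.66, 3.96 and 5.67 counts per count in the GFP libraries and 5.97, 5.89 and 6.24 in the NeuroD1 libraries. Every NeuroD1 library lay above every GFP library, by a mean log2 difference of 0.26 (2-sided exact permutation test, p = 0.1, the smallest that 3 against 3 allows; 0.2 after adjustment over 4 ratios). The difference was 0.09 without GFP replicate 2. Slc1a2 over Slc1a3 was 4.57, 3.34 and 2.95 with GFP and 5.43, 4.16 and 4.64 with NeuroD1. Here GFP replicate 1 lay above NeuroD1 replicate 2, and the log2 difference of 0.41 had an exact permutation p of 0.2 (adjusted 0.2). It was 0.27 without GFP replicate 3. Aqp4 over Kcnj10 was 0.97, 0.645 and 1.23 with GFP and 1.27, 1.28 and 1.19 with NeuroD1. GFP replicate 3 lay above NeuroD1 replicate 3, so the groups overlapped, and the log2 difference of 0.44 (exact permutation p = 0.2, adjusted 0.2) became 0.19 without GFP replicate 2. Glul over Slc1a2 was 0.542, 1.01 and 0.964 with GFP and 0.400, 0.842 and 0.466 with NeuroD1. In both groups 1 library stood away from the other pair, and the log2 difference was -0.58 (exact permutation p = 0.2, adjusted 0.2). It ranged from -0.91 without NeuroD1 replicate 2 to -0.37 without NeuroD1 replicate 1. No ratio could pass at this number of samples.

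**Figure D3:**
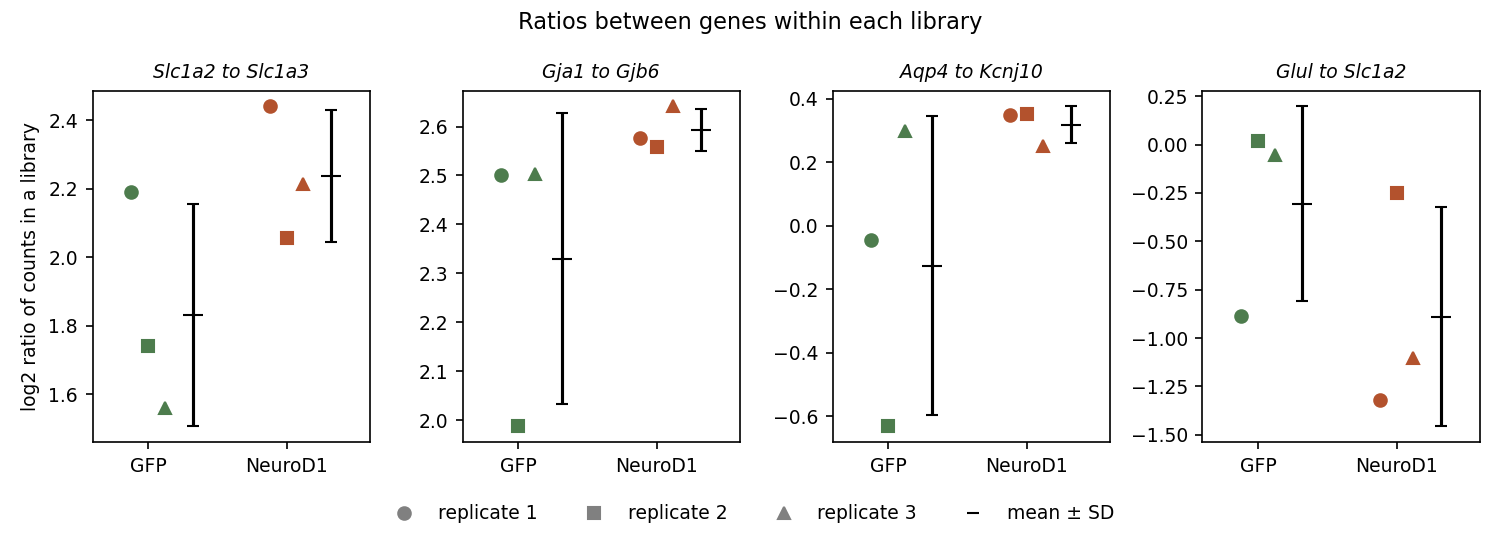
log2 ratio of the counts of 2 genes within each library for 4 fixed pairs, with 1 symbol per replicate number and black bars for the group mean ± SD (n = 3 each); the axes do not start at 0. The groups are apart only for Gja1 to Gjb6, where GFP replicate 2 lies far below the other 5 libraries.

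All 10 are protein coding. On GRCm38, from GENCODE M21, the genes whose groups did not overlap lie at chr1:153899944-153909723 on the plus strand (Glul), at chr15:88955884-88979007 on the minus strand (Mlc1) and at chr14:51905271-51914158 on the minus strand (Ndrg2). Glul shares 116 exonic bases with Teddm2 on the other strand, which had 0 to 7 counts per library. Slc1a2 and Aldh1l1 share 189 and 499 exonic bases with the antisense genes Gm13872 and Gm15756. With no strand setting stated, reads from these antisense genes cannot be told apart from reads of the 10. Aldh1l1 also shares 105 exonic bases with Gm45901, a lincRNA on its own strand, and strand could not separate those reads. The other 7 genes lie at chr2:102658659-102790784 (Slc1a2, plus strand), chr15:8634124-8710764 (Slc1a3, minus), chr18:15389496-15410982 (Aqp4, minus), chr10:56377330-56402513 (Gja1, plus), chr14:57123303-57133611 (Gjb6, minus), chr6:90486427-90600203 (Aldh1l1, plus) and chr1:172341210-172374085 (Kcnj10, plus).

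Levels of different genes were compared per length, as TPM (read counts divided by gene length and scaled to the same sum in each library) computed from the counts and the merged exon length of each gene in GENCODE M21. Glul was the most abundant of the 10 in each of the 6 libraries, at 3032 ± 746 TPM with GFP and 1849 ± 245 TPM with NeuroD1 (SD, n = 3 each), above the next gene with no overlap in either group. In the GFP mean it was followed by Ndrg2 (1103 ± 302 TPM), Slc1a2 (1043 ± 643 TPM), Mlc1 (522 ± 85.8 TPM), Slc1a3 (419 ± 157 TPM), Kcnj10 (271 ± 125 TPM), Aqp4 (222 ± 116 TPM), Gja1 (152 ± 58.9 TPM), Aldh1l1 (125 ± 35.4 TPM) and Gjb6 (113 ± 30.8 TPM). In each of these steps below Glul the ranges of the neighbours overlapped. Compared within each GFP library, the steps held in all 3 except Ndrg2 over Slc1a2, Kcnj10 over Aqp4 and Gja1 over Aldh1l1, each in 2. In the NeuroD1 mean Slc1a2 (924 ± 374 TPM) stood above Ndrg2 (494 ± 188 TPM), Slc1a3 (295 ± 102 TPM) above Mlc1 (282 ± 130 TPM) and Aqp4 (248 ± 78.7 TPM) above Kcnj10 (230 ± 75.1 TPM). Gja1 (134 ± 22.6 TPM), Aldh1l1 (93.7 ± 43.4 TPM) and Gjb6 (85.1 ± 11.7 TPM) followed in the same order as with GFP, and again only the range of Glul was clear of its neighbour. Within each NeuroD1 library, the steps held in all 3 except Slc1a3 over Mlc1, Mlc1 over Aqp4 and Aldh1l1 over Gjb6, each in 2. Ndrg2 exceeded Slc1a2 in 2 of the 3 GFP libraries and in 0 of the 3 NeuroD1 libraries.

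NeuroD1 binds E-boxes, whose letters are CANNTG (the same on both strands), so the 250 bases before the annotated starts of the 10 genes were searched for them. RefSeq promoters on GRCm38.p6 matched 9 of the 10 by symbol, all but Aqp4, with 11 starts. The stretches searched for Slc1a2, Aldh1l1 and Mlc1 lie inside the GENCODE spans of these genes, as do those of Ndrg2 wholly or in part. GENCODE exons cover all 250 bases for Glul and Mlc1 and up to 246 for Ndrg2. An E-box was present before 9 of the 11 starts, which belong to 8 of the 9 genes, and in 66.2% of all 32851 promoters of that length, counted per start. The form CAGATG, read on either strand, was in 0 of the 9, against 14.4% of all promoters. The share with any E-box is high everywhere, and a match is only a run of letters. Those of Slc1a3, whose levels were nearest to the median profile of the 10, of both connexin genes and of Kcnj10, the gene with no E-box, are shown 5′ to 3′ because none of their bases lies in a GENCODE exon. They lie at chr15:8710808-8711057 (Slc1a3, minus strand), chr10:56377050-56377299 (Gja1, plus), chr14:57133612-57133861 (Gjb6, minus) and chr1:172340960-172341209 (Kcnj10, plus), and capitals mark E-boxes.
Slc1a3: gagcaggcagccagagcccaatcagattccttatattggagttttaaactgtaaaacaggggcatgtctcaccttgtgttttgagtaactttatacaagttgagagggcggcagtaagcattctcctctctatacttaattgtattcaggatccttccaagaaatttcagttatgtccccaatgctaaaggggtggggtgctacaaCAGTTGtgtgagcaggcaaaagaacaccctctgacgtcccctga
Gja1: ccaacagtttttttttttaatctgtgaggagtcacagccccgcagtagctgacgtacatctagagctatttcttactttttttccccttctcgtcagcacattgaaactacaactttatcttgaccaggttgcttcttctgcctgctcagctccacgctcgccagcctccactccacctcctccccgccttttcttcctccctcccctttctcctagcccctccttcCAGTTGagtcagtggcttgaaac
Gjb6: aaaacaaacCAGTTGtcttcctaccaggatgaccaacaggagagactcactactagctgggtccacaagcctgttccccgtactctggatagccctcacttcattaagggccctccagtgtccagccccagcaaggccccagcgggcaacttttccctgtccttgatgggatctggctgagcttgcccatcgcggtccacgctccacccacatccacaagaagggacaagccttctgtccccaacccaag
Kcnj10: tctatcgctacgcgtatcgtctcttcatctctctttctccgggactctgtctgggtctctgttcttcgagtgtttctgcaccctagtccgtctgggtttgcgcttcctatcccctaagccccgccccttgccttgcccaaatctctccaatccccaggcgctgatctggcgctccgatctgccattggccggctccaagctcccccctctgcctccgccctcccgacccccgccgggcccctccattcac

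Slc1a3, Gja1 and Gjb6 each hold 1 E-box of the letters CAGTTG, at different distances from the start.

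Genes that work beside these 10 were described from lists chosen with earlier results of these data known, and edgeR's adjusted test called 0 members of any of them. DESeq2's adjusted test, which called 3.93% of all its genes in the lower direction and 8.99% in either, called 4 lower of 10 in amino acid uptake and glutamate metabolism, 2 lower and 1 higher of 10 in the endfoot list and 7 lower of 20 in astrocyte identity. It called 1 lower and 1 higher of 14 reactive genes, 1 lower of 22 relatives and 0 of 7 in potassium, sodium pump and bicarbonate transport. In the list of amino acid uptake and glutamate metabolism, 8 of 10 estimates were negative, and 4 were lower and 0 higher at an unadjusted p under 0.05 (all tested genes, 11.5% and 12.5%), with a median log2 fold change of -0.54. Slc25a18, a mitochondrial glutamate carrier, averaged 101.4 ± 22.3 CPM with GFP and 45.7 ± 3.21 CPM with NeuroD1. Slc38a3, the glutamine exporter SNAT3, averaged 211 ± 30.5 and 92.2 ± 22.1 CPM, and Slc7a10, a carrier of small neutral amino acids, 28.8 ± 6.66 and 11.9 ± 3.88 CPM (SD, n = 3 each). For these 3 genes every NeuroD1 library lay below every GFP library, and the edgeR adjusted p was 0.136 for each. They were named for their small p within this list, so their lack of overlap adds nothing. Over the whole list every NeuroD1 library lay below every GFP library in 5 of 10 genes and above in 0 (all tested genes, 15.3% and 14.2%).

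The proteins that anchor channels at the endfoot or bind Mlc1 gave 5 lower and 1 higher of 10 at an unadjusted p under 0.05 (all tested genes, 11.5% and 12.5%), with a median of -0.45. Hepacam, which encodes GlialCAM, the protein that carries Mlc1 to cell junctions, averaged 247 ± 35.4 CPM with GFP and 151 ± 27.5 CPM with NeuroD1 (edgeR adjusted p = 0.146). Clcn2, the chloride channel that GlialCAM also binds, averaged 82.4 ± 6.82 and 37.8 ± 16.9 CPM (edgeR adjusted p = 0.138). For Hepacam and Clcn2, as for Mlc1, every NeuroD1 library lay below every GFP library. Hepacam and Clcn2 were named for their small p within this list, so their lack of overlap says nothing about the 3 genes as a set. Over the whole list every NeuroD1 library lay below every GFP library in 5 of 10 genes and above in 1 (all tested genes, 15.3% and 14.2%). Dag1, the dystroglycan gene that links the endfoot to the basement membrane, stood the other way, at 116 ± 30.3 with GFP and 195 ± 22.0 CPM with NeuroD1 (edgeR adjusted p = 0.147), with every NeuroD1 library above every GFP library. Dystroglycan is made by many cell types besides astrocytes.

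The list of potassium, sodium pump and bicarbonate transport had a median log2 fold change of -0.46 over 7 tested genes. Of their estimates 3 were positive and 4 negative, and 0 genes were higher at an unadjusted p under 0.05 (all tested genes, 12.5%). Atp1b2, a beta subunit of the sodium pump, averaged 1167 ± 156 CPM with GFP and 787 ± 99.1 CPM with NeuroD1 (edgeR adjusted p = 0.227). Named for its small p within this list, it had every NeuroD1 library below every GFP library, as did 15.3% of all tested genes. Slc12a2, a chloride importer found in several cell types, averaged 96.3 ± 17.8 and 137 ± 32.7 CPM (edgeR adjusted p = 0.244), with groups that overlapped.

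Genes of astrocyte identity and metabolism had negative estimates in 20 of 20, with a median of -0.67, and 10 were lower at an unadjusted p under 0.05 (all tested genes, 11.5%). In 11 of the 20 every NeuroD1 library lay below every GFP library (all tested genes, 15.3%). Ntsr2, a neurotensin receptor of astrocytes, averaged 188 ± 31.1 CPM with GFP and 67.8 ± 16.5 CPM with NeuroD1, a log2 fold change of -1.48 (SE 0.25). S100b, a calcium-binding protein, averaged 262 ± 49.2 and 122 ± 20.3 CPM, and Cldn10, a claudin, 29.8 ± 4.67 and 12.2 ± 4.46 CPM, and each of these 3 had an edgeR adjusted p of 0.136. The summed level of the list was 4697 to 6361 CPM in the GFP libraries and 2695 to 3833 CPM in the NeuroD1 libraries, without overlap. The summed level of the 10 genes overlapped, at 6826 to 13667 CPM and 5705 to 8738 CPM. Abundant genes weigh most in such sums: in GFP replicate 1 Slc1a2 and Glul held 5775 and 3128 of 13667 CPM. There Clu and Aldoc, named after their values were seen, held 2782 and 1419 of the 6361 CPM of the identity list. That the 2 lists differ was not tested.

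Reactive astrocyte genes were mixed, with a median of 0.14 and, at an unadjusted p under 0.05, 4 higher and 2 lower of 14 (all tested genes, 12.5% and 11.5%). Cd44, a hyaluronan receptor that leukocytes also carry, averaged 51.7 ± 4.31 CPM with GFP and 131 ± 55.2 CPM with NeuroD1 (edgeR adjusted p = 0.136), and Tnc, the matrix protein tenascin C, 17.8 ± 4.29 and 28.1 ± 3.61 CPM (edgeR adjusted p = 0.170). Hspb1, a small heat shock protein, averaged 17.6 ± 4.32 and 10.6 ± 1.39 CPM (edgeR adjusted p = 0.161). Gfap, named after its values were seen, had 5669, 6231 and 4660 CPM with GFP and 3157, 1814 and 3709 CPM with NeuroD1, with no overlap between the groups. Its log2 fold change was -0.93 (SE 0.39; edgeR adjusted p = 0.193). Over the whole list every NeuroD1 library lay above every GFP library in 4 of 14 genes and below in 2 (all tested genes, 14.2% and 15.3%).

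Relatives of the 10 genes that other cells use were tested in 22 of 24 cases, and 5 were lower and 0 higher at an unadjusted p under 0.05 (all tested genes, 11.5% and 12.5%), with a median of -0.13. The vessel connexin Gja4 averaged 10.2 ± 2.94 CPM with GFP and 4.34 ± 1.42 CPM with NeuroD1 (edgeR adjusted p = 0.140). Kcnj8, a potassium channel of pericytes, averaged 10.7 ± 0.467 and 6.81 ± 1.21 CPM (edgeR adjusted p = 0.177), and Aqp9, a water and glycerol channel, 3.39 ± 0.555 and 1.76 ± 0.437 CPM (edgeR adjusted p = 0.182). The neuronal transporter Slc1a1, chosen for mention once its values were known, showed a log2 fold change of -0.02 (SE 0.31).

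Markers of other cells in the samples differed too, and no list had a member at 0 in all 6 libraries. By the same rule, an unadjusted p under 0.05, which 11.5% of all tested genes met in the lower and 12.5% in the higher direction, 8 of 9 markers of infiltrating myeloid cells were higher, with a summed level of 882 to 2258 CPM with GFP and 2687 to 8312 CPM with NeuroD1. Of the fibroblast and leptomeningeal markers 5 of 8 were higher (973 to 1852 and 1590 to 8050 CPM). Of the endothelial markers 7 of 9 were lower (570 to 848 and 213 to 439 CPM), as were 4 of 10 oligodendrocyte markers (11020 to 21074 and 7187 to 9614 CPM) and 7 of 8 ependymal and choroid plexus markers (123 to 894 and 30.1 to 102 CPM). The highest ependymal and choroid plexus sum, 894 CPM, and the highest oligodendrocyte sum were in GFP replicate 2, the library lowest in Aqp4 and Gja1. Single genes, named after their values were seen, held most of these sums: Ttr 784 of 894 CPM and Mbp 13996 of 21074 CPM. In the same way Lyz2 held 773 of the 882 CPM of the myeloid sum in GFP replicate 1 and 7588 of 8312 CPM in NeuroD1 replicate 2. Among neuron markers 1 of 12 was higher and 0 lower (5347 to 10098 and 3696 to 9934 CPM). Of the precursors of oligodendrocytes 3 of 7 markers were higher (541 to 842 and 676 to 1033 CPM), and of microglia 1 of 8 was higher and 1 lower (2893 to 3396 and 3429 to 5096 CPM). The neuron and microglia counts lie near the share of all tested genes. DESeq2's adjusted test called 3.93% of all its genes lower and 8.99% in either direction. It called 6 of 9 myeloid, 5 of 8 fibroblast and leptomeningeal and 1 of 7 oligodendrocyte precursor markers higher. Lower were 7 of 9 endothelial, 3 of 10 oligodendrocyte and 1 of 8 ependymal or choroid plexus markers. Of the 12 neuron and 8 microglia markers it called 0. The part of these cell types in the levels of the 10 genes was not tested.

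**Figure D4:**
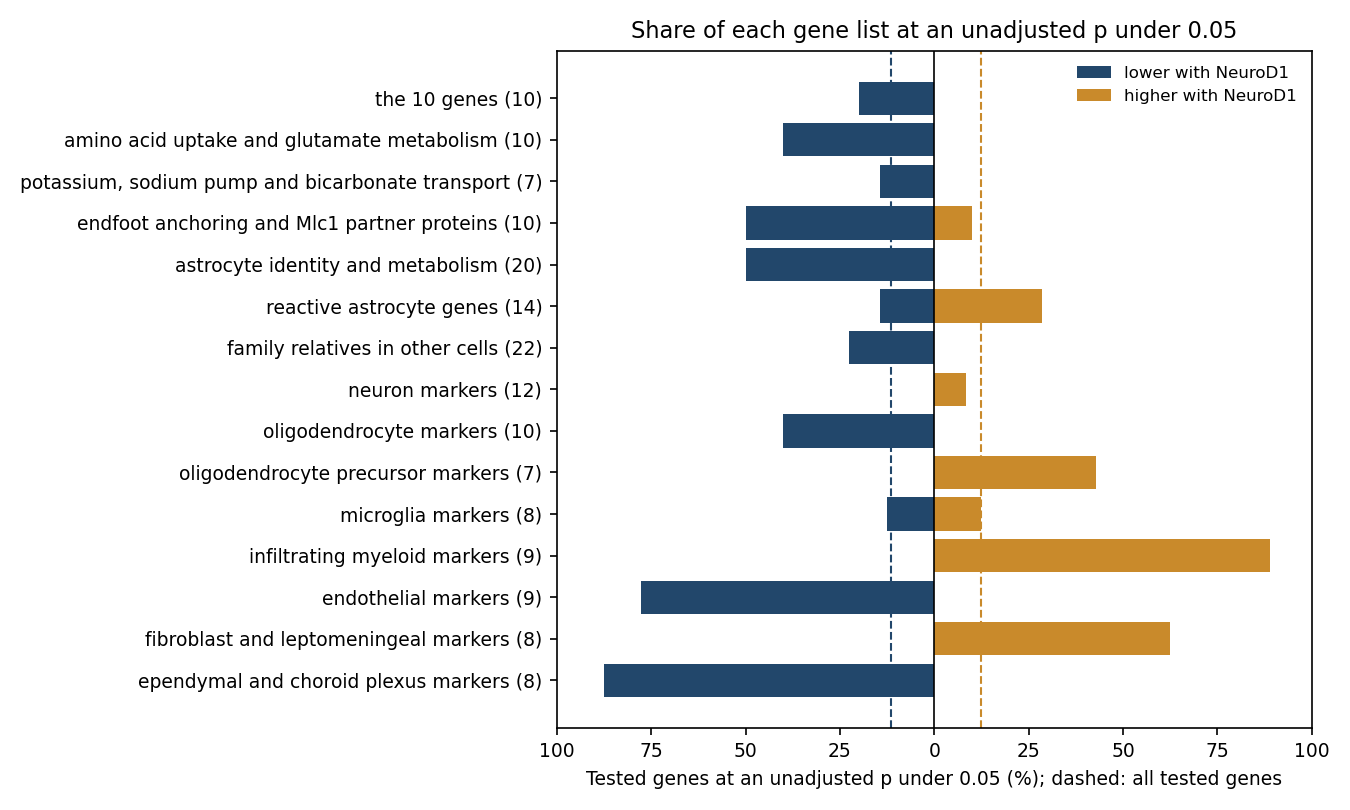
Percentage of each list's tested genes (number in brackets) at an unadjusted edgeR p under 0.05, to the left where lower and to the right where higher with NeuroD1, with dashed lines for all tested genes (11.5% and 12.5%). The bar of the 10 genes stands for 2 lower genes, and the longest bars are those of the myeloid, ependymal and endothelial markers.

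Neurod1 itself, which checks the labels, had 3.87 to 6.48 CPM in the GFP libraries and 14.6 to 48.5 CPM in the NeuroD1 libraries, and reads of a delivered and the native copy were not separated. Total counts were 7753101 to 9698795 in the GFP libraries and 10843273 to 13440244 in the NeuroD1 libraries, so every NeuroD1 library was deeper. The 10 genes had from 563 to 57029 counts per library.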

How the data were processed

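The labels' protocols name a Macherey-Nagel RNA kit for extraction and Illumina library protocols. Each deposited value is a whole-number read count of 1 gene in 1 library. Per the file headers, the authors counted reads with featureCounts against a gene file for mm10. The submitters' processing notes list HISAT2 2.0.1, DESeq2 1.16.1 and GRCm38, with no roles. How strand was handled, the annotation release and any read filter were not stated in these sources. Columns were matched to samples by the label descriptions.

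Counts were tested with edgeR 4.0.16 (quasi-likelihood, TMM, filterByExpr with a minimum count of 10 and a minimum total of 15, treatment the only term) in R 4.3.3, with Benjamini-Hochberg adjustment over all tested genes. Standard errors were derived from the F statistic. Likeness used log2 of CPM plus 0.5. Alternatives were limma-voom (limma 3.58.1), DESeq2 1.42.0, other scalings and filters, a replicate block, leaving out each library and, added after the data were seen, offsets for transcript length and GC content (natural splines, 4 degrees of freedom; 96.5% of tested genes had a length) and DESeq2 with each library left out. The edgeR fit was tested on simulated data. Pairs of libraries within a group differed far beyond sampling noise (chi-square per gene from 33.8), so none was treated as a duplicate.

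The 10 genes and all lists were chosen with earlier results of these data known. The rule for named genes took the 10, the 5 nearest profiles and Neurod1. It also took the 3 genes of each further list with the smallest unadjusted p. Lists of other cell types' markers are given as counts and summed levels, with single genes only where this is said. Genes outside the rule are said to be named after their values were seen. A gene that the rule names is not reported here.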

Additional observations from a re-analysis of the deposited data

How the results depend on the processing

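No setting of edgeR or limma-voom called any of the 10 genes after adjustment. Over all genes edgeR called 0 (3564 at an unadjusted p under 0.05), limma-voom 0 and DESeq2 1374. With 1 library left out edgeR called 0 to 1 genes, the 1 being without NeuroD1 replicate 2, and DESeq2 called 162 (without GFP replicate 2) to 2380 (without NeuroD1 replicate 3); dropping GFP replicate 3 gave 224 and dropping NeuroD1 replicate 1 gave 256. With a replicate block edgeR called 479 genes, 0 of them among the 10, whose median log2 fold change was then -0.39. The labels give both groups replicate numbers 1 to 3 but do not say what they share, so the numbers were not taken as pairs. Same-numbered libraries deviated together with correlations of 0.56, 0.39 and 0.03, the first 2 being the highest between the groups. GFP replicate 3 correlated best with NeuroD1 replicate 2 (0.14). With 3 libraries a group these correlations cannot decide whether the numbers mark pairs.

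The number of the 10 at an unadjusted p under 0.05 was 1 to 2 when edgeR was run with 1 library left out (1, Ndrg2, where the library left out was GFP replicate 1 or 2 or NeuroD1 replicate 1) and 1, again Ndrg2, with the length and GC offsets. With DESeq2 and with upper quartile scaling it was 3, Glul being the third, and DESeq2 with 1 library left out gave 1 to 3. The share of all tested genes past that p, in either direction, also moved. In edgeR it ran from 11.9% without GFP replicate 2 to 28.99% without NeuroD1 replicate 3. It was 22.8% with the offsets, 21.2% with DESeq2 and 23.8% with upper quartile scaling. DESeq2 with 1 library left out gave 11.3% (without GFP replicate 2) to 23.4% (without NeuroD1 replicate 3). The number with groups that did not overlap was 3 to 5, with 5 without GFP replicate 3, where 34.0% of all tested genes did not overlap. That share was 29.6% with all libraries and reached 50.7% without GFP replicate 1, where the number of the 10 was 3. An unchanged number therefore does not mean an unchanged standing beside all tested genes. The median log2 fold change ran from -0.53 to -0.18 when 1 library was left out.

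Glul, Mlc1, Ndrg2, Slc1a3, Gjb6 and Aldh1l1 kept a negative estimate in every alternative run. In edgeR, leaving out 1 library moved Slc1a2 between -0.40 and 0.42, Kcnj10 between -0.40 and 0.18, Gja1 between -0.27 and 0.18 and Aqp4 between -0.041 (without GFP replicate 2) and 0.64. Slc1a2 and Kcnj10 were also positive without NeuroD1 replicate 2 (0.13 and 0.005). Aqp4 was -0.075 with the length and GC offsets. With DESeq2 and 1 library left out, Slc1a2 was positive in 2 fits (0.45 without GFP replicate 1, 0.14 without NeuroD1 replicate 2), as was Kcnj10 (0.21 and 0.023), Gja1 was 0.21 without GFP replicate 1 and Aqp4 -0.021 without GFP replicate 2. The cause was not tested. With 3 libraries a group the spread between libraries, not the depth, sets the precision.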
